A study of Mus musculus with 18 samples.

Results

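The genes of iodide uptake and thyroid hormone handling followed here in mouse mammary epithelial organoids are Slc5a5, Duox1, Duox2, Dio2, Slc16a10, Thra and Thrb. They were chosen by function and by measured values, namely their levels in the 6 groups and their changes against vehicle. All 7 were found by symbol among the 56691 features of the estradiol table and the 56893 features of the Torin table. In each experiment 6 of them had enough counts to be tested, and Duox2 did not. Because those values chose the genes, the changes of the members against vehicle are given as a description, with no p-value, and counts of members past a threshold in them are read as no result. The p-values that are given for members come from other contrasts of the same libraries and are no independent evidence.

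The organoids came from mammary glands of nulliparous wild-type C57BL/6 mice, and polyadenylated RNA was sequenced in 18 libraries, 3 for each of 6 groups. In the estradiol experiment, organoids of mice of about 24 weeks received 10 nM estradiol or ethanol for 11 of 12 days of culture. In the Torin experiment, organoids of mice of about 15 weeks, grown in Matrigel for 18 days, received DMSO or 100 nM Torin 1, which blocks the kinase mTOR, in 2 arms called D6 and D12. The sample titles read D6 as 6 and D12 as 12 days of treatment, while the series text gives the opposite, and each arm has its own batch tag, so batch, length and start of treatment cannot be told apart. The glands of 3 mice were used, and what separates the replicates is not stated, so p-values measure the spread between these libraries, which may be technical. In bulk RNA of this kind, fewer cells of a type and less RNA per cell cannot be told apart.

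Iodide enters thyroid follicular cells, and milk-secreting mammary epithelium, through the sodium iodide symporter encoded by Slc5a5. In the thyroid, the dual oxidases encoded by Duox1 and Duox2 make the hydrogen peroxide that is needed to couple iodide to thyroglobulin. In target tissues the deiodinase encoded by Dio2 converts thyroxine to the active hormone triiodothyronine, the carrier encoded by Slc16a10 moves the hormones across the membrane, and the nuclear receptors encoded by Thra and Thrb bind it on DNA.

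Of the 6 genes tested, Slc5a5 and Dio2 had the largest differences, and both were higher in all treated groups. The 250 bases before the RefSeq transcription start of each are therefore shown (build GRCm38.p6, 5′ to 3′ on the gene's strand). The Slc5a5 window lies at chr8:70892758-70893007 and the Dio2 window at chr12:90739039-90739288, both on the minus strand. Capitals mark matches to motifs that were picked after the sequences were seen: in Slc5a5 a GC box (GGGCGG) and a half-site of the estrogen receptor (GGTCA, read here on the other strand as TGACC), and in Dio2 a cAMP response element (TGACGTCA) and a TATA box (TATAAA).
Slc5a5: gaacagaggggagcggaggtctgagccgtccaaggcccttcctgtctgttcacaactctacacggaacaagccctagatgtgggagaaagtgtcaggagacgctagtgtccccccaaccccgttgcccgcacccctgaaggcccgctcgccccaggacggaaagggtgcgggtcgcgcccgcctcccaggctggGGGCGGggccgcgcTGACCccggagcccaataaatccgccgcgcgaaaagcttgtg
Dio2: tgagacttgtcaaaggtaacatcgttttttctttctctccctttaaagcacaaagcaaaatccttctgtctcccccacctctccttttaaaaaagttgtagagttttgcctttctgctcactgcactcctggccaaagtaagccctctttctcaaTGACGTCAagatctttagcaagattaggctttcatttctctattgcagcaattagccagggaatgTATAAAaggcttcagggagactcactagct

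The Slc5a5 window held 66.4% G and C and the Dio2 window 41.6%, against a median of 52.4% over all 32851 windows of this length. With both strands searched, the 8 letters of the cAMP response element occurred in 1.55% of all windows, and among the members in Dio2, starting 95 bases before the start site. TATAAA occurred in 12.4% of windows and lay 30 bases before the Dio2 start. The GC box of Slc5a5 began 56 bases and its half-site 42 bases before the start. These are common letters, found in 32.7% and 35.2% of windows, and the half-site also lies in a window of Thrb, Slc16a10, Duox1 and Duox2 and not in that of Dio2. The Slc5a5 window also holds a CCAAT box (CCAAT, in 33.8% of windows, not in capitals), which begins 30 bases before the start. The full estrogen response element (GGTCA and TGACC with any 3 bases between) was found in 0.0639% of windows and in none of the windows held for 6 of the 7 genes. A match describes letters in a window of 250 bases and shows neither binding nor its absence.

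Slc5a5 RNA was close to the detection limit in all vehicle libraries. In ethanol its level was 0.303, 0.126 and 0.389 CPM (counts relative to the scaled library total, within an experiment), from 18 counts over the 3 libraries. In estradiol it was 13.5, 13.0 and 12.1 CPM, from 840 counts. The lowest estradiol library stood far above the highest ethanol library, and the log2 fold change was 5.56 (SE 0.21).

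In the Torin experiment the Slc5a5 level was 0.233, 0.268 and 0.144 CPM in DMSO D6 and 4.58, 5.00 and 7.75 CPM in Torin D6. In DMSO D12 it was 0.368, 0.354 and 0.258 CPM, and in Torin D12 it was 3.08, 2.73 and 2.66 CPM. The groups overlapped in neither arm. The log2 fold change was 4.73 (SE 0.31) in D6 and 3.09 (SE 0.29) in D12. These folds rest on 16 and 27 counts in the DMSO groups, so counting error of the vehicle limits their precision.

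Dio2 was measured with more counts and was likewise higher in each treated group. Its level was 3.20, 3.53 and 4.18 CPM in ethanol and 71.5, 72.5 and 71.3 CPM in estradiol, a log2 fold change of 4.31 (SE 0.076). The estradiol libraries differed from one another by far less than from the ethanol libraries. In D6 its level was 1.71, 1.25 and 1.34 CPM with DMSO and 34.5, 37.2 and 31.7 CPM with Torin, a log2 fold change of 4.58 (SE 0.25). In D12 it was 0.589, 0.885 and 1.36 CPM with DMSO and 10.9, 8.42 and 11.2 CPM with Torin, a log2 fold change of 3.42 (SE 0.25). No treated library fell to the level of a vehicle library in either arm. The gene Gm26512 shares exon bases with Dio2 on the opposite strand (GENCODE M21), and how strand was used in counting is not stated. It held 4 to 19 counts per group, against 827 to 4676 for Dio2 in the treated groups.

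**Figure D1:**
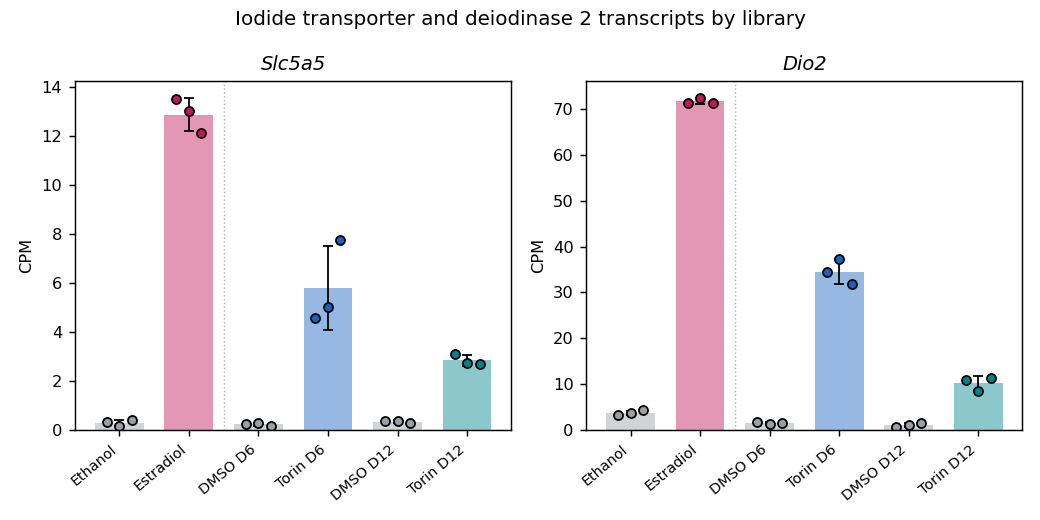
Levels of Slc5a5 (left) and Dio2 (right) in CPM for the 6 groups, with bars at the mean of 3 libraries, error bars of 1 SD and a point per library; the dotted line separates the experiments, which were scaled apart. In both genes the treated groups lie above their vehicles, from 12.1 to 13.5 CPM for Slc5a5 and 71.3 to 72.5 CPM for Dio2 in estradiol.

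The Torin effect on both genes was larger in D6 than in D12. For Slc5a5 the log2 effect in D12 minus that in D6 was -1.64 (SE 0.44, adjusted p = 0.0349, edgeR quasi-likelihood test with Benjamini-Hochberg adjustment over 18112 genes). For Dio2 it was -1.16 (SE 0.34, adjusted p = 0.0490, same test). The direction held in all 21 alternatives for both, but the call was lost in 12 of 21 for Slc5a5 and 15 of 21 for Dio2. Without the third Torin D6 library, which correlated least with its own group (mean r = 0.965 across genes, against 0.974 to 0.991 for the other libraries), the Slc5a5 difference was -1.34 (adjusted p = 0.0642, edgeR) and the Dio2 difference -1.18 (adjusted p = 0.0355). Over all 21 alternatives the adjusted p ran from 0.0268 to 0.101 for Slc5a5 and from 0.00632 to 0.140 for Dio2. These tests use the libraries in which the genes were chosen and are no independent evidence.

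Between the DMSO groups of the arms, neither gene passed the test. Slc5a5 was higher in D12 by a log2 of 0.61 (SE 0.37) and Dio2 lower by a log2 of -0.60 (SE 0.26), each with an adjusted p of 1 (edgeR), and the libraries overlapped for both. Of the 6 members tested none was called here, and 1 (Dio2, unadjusted p = 0.0422) was under 0.05 before adjustment, in a comparison in which 0.00552% of all genes were called. The DMSO groups did not overlap for 2 of the 6, Duox1 (higher in D12) and Slc16a10 (lower in D12), which was so for 12.2% of all genes.

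Over the 6 group means, the Slc5a5 profile was compared with those of 11336 named genes that averaged at least 1 CPM in each experiment. Predicted genes (Gm and Rik symbols) were left out. The levels carry a prior count of 2, which narrows differences from low counts such as those of Slc5a5 in vehicle. The nearest was Penk, which encodes proenkephalin, with a root mean square difference of 0.338 on the log2 scale. Dio2 came next at 0.502, followed by Cel (a lipase) at 0.607, Enpp2 (autotaxin) at 0.631 and Cldn10 (a claudin) at 0.955. For Dio2 the nearest genes were Slc5a5 at 0.502, Penk at 0.522, Cel at 0.720, Enpp2 at 0.721 and Aspa (aspartoacylase) at 0.731. Penk had log2 fold changes of 5.09, 3.49 and 2.48 in estradiol, D6 and D12. The measure takes in the size of the changes as well as their pattern. It describes 6 means from 18 libraries that all genes share and carries no test.

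The dual oxidases did not follow this pattern. Duox1, which encodes one of the enzymes, was at 2.90, 2.81 and 2.58 CPM in ethanol and 2.25, 2.26 and 3.20 CPM in estradiol, and the groups overlapped. Its log2 fold change was -0.11 (SE 0.21). In D6 it was at 1.83, 1.74 and 1.55 CPM with DMSO and 3.15, 4.21 and 1.82 CPM with Torin, a log2 fold change of 0.84 (SE 0.46). The groups overlapped through the third Torin library. In D12 it was at 3.42, 2.58 and 3.24 CPM with DMSO and 0.380, 1.90 and 1.92 CPM with Torin, a log2 fold change of -1.13 (SE 0.46). Here all Torin libraries lay below all DMSO libraries. The Duox1 effects in D12 and D6 differed by -1.97 (SE 0.65) on the log2 scale, which missed the threshold (adjusted p = 0.0787, edgeR). Without the third Torin D6 library the difference was -2.20 and passed it (adjusted p = 0.0254, edgeR, with 0.00903 to 0.168 over 21 alternatives). The same libraries chose Duox1, so this is no independent evidence.

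Duox2 had too few counts in both experiments to pass the filter and was not tested. Its counts were 9, 7 and 3 in ethanol and 0, 2 and 3 in estradiol, a ratio of scaled counts of 0.273 (95% exact counting interval 0.0795 to 0.755). In D6 they were 5, 1 and 4 with DMSO, and no count was seen in any Torin library, a ratio of 0 (0 to 0.410). In D12 they were 4, 18 and 0 with DMSO and 1, 1 and 1 with Torin, a ratio of 0.139 (0.0266 to 0.461), and 1 DMSO library held most of the counts. The intervals cover counting error only, not the spread between libraries. Summed counts were lower in the treated group each time, at a depth where single libraries with 0 counts occurred in 3 of 6 groups.

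Slc16a10, which encodes a carrier of aromatic amino acids and thyroid hormones, overlapped between treated and vehicle libraries in CPM in all 3 comparisons. It was at 0.692, 0.966 and 1.46 CPM in ethanol and 0.720, 0.692 and 0.752 CPM in estradiol, a log2 fold change of -0.51 (SE 0.35). In D6 it was at 0.583, 0.492 and 1.16 CPM with DMSO and 0.678, 0.639 and 1.44 CPM with Torin, a log2 fold change of 0.29 (SE 0.48). In D12 it was at 0.442, 0.354 and 0.478 CPM with DMSO and 0.685, 1.14 and 0.385 CPM with Torin, a log2 fold change of 0.78 (SE 0.51). Without the third Torin D6 library the D6 value turned to -0.20. The Torin effects of the arms differed by 0.49 (SE 0.70, adjusted p = 0.713, edgeR).

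Thra, which encodes the thyroid hormone receptor alpha, was lower with estradiol. It was at 46.0, 47.6 and 44.3 CPM in ethanol and 31.1, 33.2 and 31.0 CPM in estradiol, a log2 fold change of -0.53 (SE 0.054) between groups that did not overlap. In D6 it was at 21.2, 20.7 and 20.2 CPM with DMSO and 8.65, 9.92 and 20.8 CPM with Torin. The third Torin library lay among the DMSO libraries, far above the other Torin libraries, and the log2 fold change was -0.66 (SE 0.26) with it and -1.17 without it. In D12 Thra was at 21.3, 20.4 and 22.0 CPM with DMSO and 16.9, 14.6 and 12.8 CPM with Torin, a log2 fold change of -0.52 (SE 0.26), with no overlap. The effects of the arms differed by 0.13 (SE 0.37, adjusted p = 0.860, edgeR), and by 0.66 (adjusted p = 0.0191) without the third Torin D6 library. Over 21 alternatives that adjusted p ran from 0.00436 to 1.00.

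Exons of Thra overlap those of Nr1d1, which encodes the circadian repressor REV-ERB alpha, on the opposite strand (GENCODE M21). Nr1d1 fell in all 3 comparisons, with log2 fold changes of -0.58 (SE 0.087) with estradiol, -1.09 (SE 0.097) in D6 and -0.84 (SE 0.096) in D12. The libraries were stranded, but whether counting used the strand is not stated, so the part of either gene's reads in the other's count was not tested.

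Thrb, which encodes the thyroid hormone receptor beta, was at 1.04, 1.47 and 0.972 CPM in ethanol and 1.3, 0.877 and 0.799 CPM in estradiol, overlapping groups with a log2 fold change of -0.23 (SE 0.32). In D6 it was at 8.40, 6.49 and 11.4 CPM with DMSO and 5.90, 6.39 and 3.23 CPM with Torin, a log2 fold change of -0.76 (SE 0.34). In D12 it was at 4.57, 5.21 and 7.40 CPM with DMSO and 11.6, 18.2 and 8.05 CPM with Torin, a log2 fold change of 1.14 (SE 0.34). The groups did not overlap in either arm, with Torin lower in D6 and higher in D12, although in D6 the nearest libraries were only 6.39 and 6.49 CPM. The effects differed between the arms by 1.90 (SE 0.48, adjusted p = 0.0282, edgeR, 18112 genes). That direction held in all 21 alternatives and the call was lost in 9 of them. Without the third Torin D6 library the difference was 1.69 (adjusted p = 0.0212, edgeR, with 0.00117 to 0.0795 over the 21). These tests use the libraries in which Thrb was chosen and are no independent evidence. The DMSO groups of the arms themselves differed by -0.62 (SE 0.34, adjusted p = 1, edgeR).

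**Figure D2:**
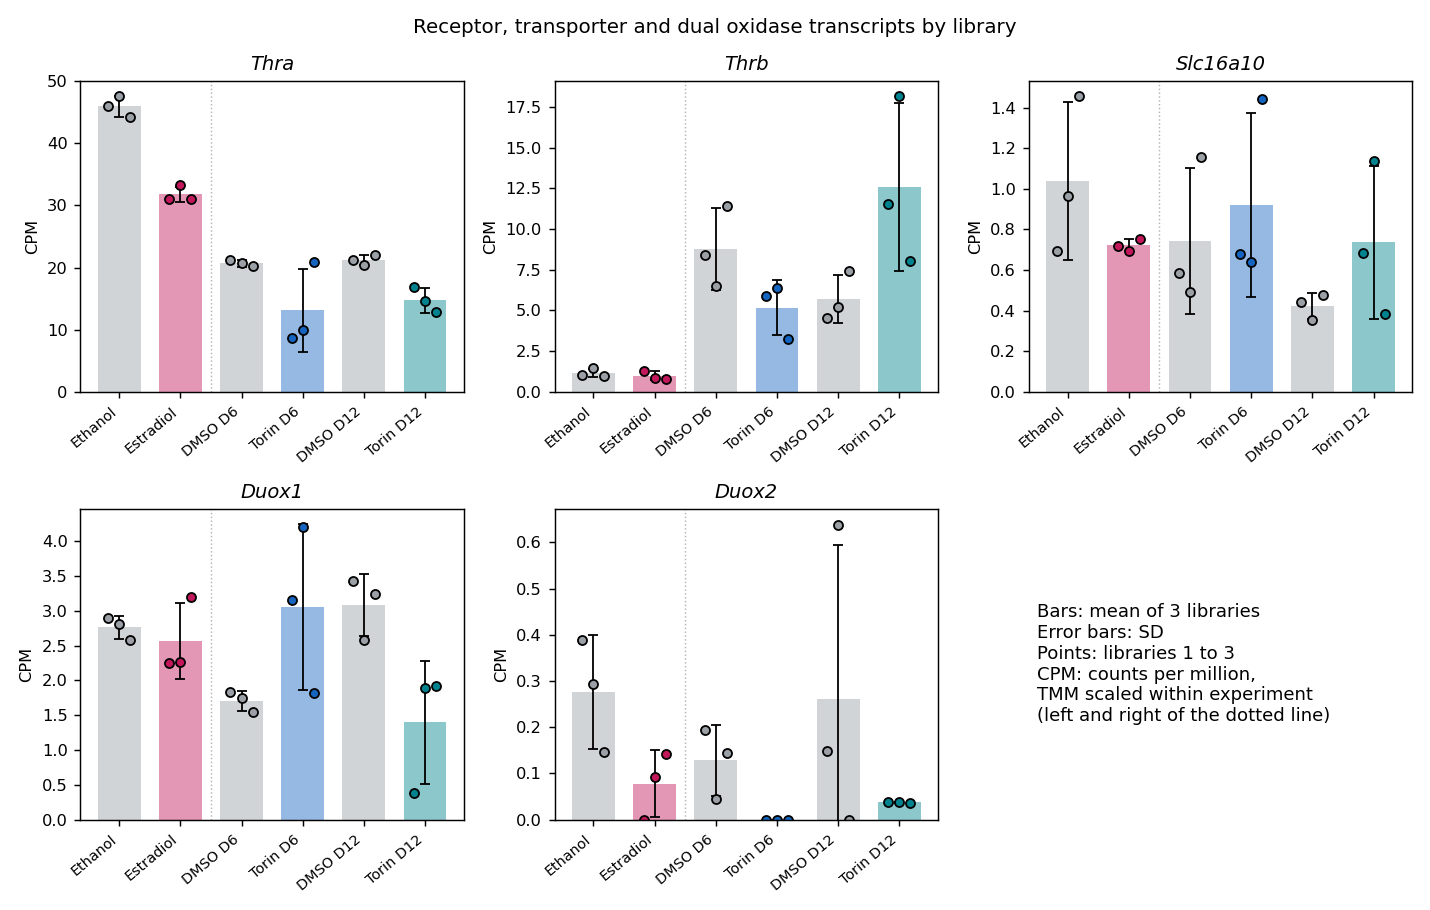
Levels of Thra, Thrb, Slc16a10, Duox1 and Duox2 in CPM for the 6 groups, drawn as for Slc5a5 and Dio2, with error bars of 1 SD cut off at 0. The third Torin D6 library lies apart for Thra (20.8 CPM against 8.65 and 9.92), and Duox2 has no count in Torin D6.

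**Figure D3:**
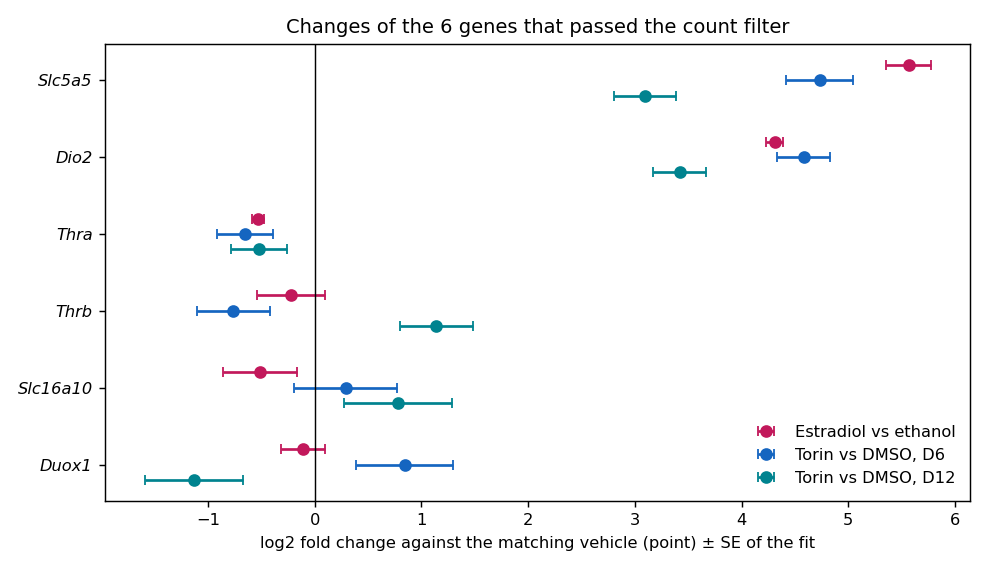
Log2 fold change (points) and SE of the fit (bars) of the 6 genes that passed the count filter, for estradiol against ethanol and for Torin against DMSO in D6 and D12. Slc5a5 and Dio2 lie between 3.09 and 5.56 in all 3 comparisons, while the other genes lie between -1.13 and 1.14.

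With estradiol, 2 of the 6 members tested were higher (17.4% of all genes) and 1 lower (16.6%) past an adjusted p of 0.05, where 34.0% of all genes were called either way. In D6 2 were higher (19.8%) and none lower (19.3%), with 39.1% of all genes called, and in D12 3 were higher (10.8%) and none lower (14.6%), with 25.4% called. The groups did not overlap for 3 of 6 members with estradiol (46.4% of all genes), 3 of 6 in D6 (48.5%) and 5 of 6 in D12 (43.7%). In the difference of the arms 1 was above 0 (5.03% of all genes) and 2 were below (5.55%), where 10.6% were called. The first 3 of these contrasts helped to choose the genes, and the difference of the arms is built from the D6 and D12 changes. Nothing is read from any of these counts. Leaving out the third Torin library of each arm brought the count of members past the threshold to 4 in D6 and 5 in D12. The share of all genes past it was not computed for that setting, so nothing is read from these counts either.

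Levels were also ordered within each experiment, since the tables were scaled apart. Slc5a5 stood highest in Torin D6 at 5.77 ± 1.72 CPM (SD, n = 3), then in Torin D12 at 2.82 ± 0.226 CPM, and the DMSO groups, at 0.327 ± 0.0602 and 0.215 ± 0.0639 CPM, overlapped. For Dio2 the Torin groups were ordered alike, at 34.5 ± 2.74 CPM in Torin D6 and 10.2 ± 1.51 CPM in Torin D12, with the DMSO groups overlapping at 1.43 ± 0.244 and 0.945 ± 0.390 CPM. For Thrb the highest group was Torin D12 at 12.6 ± 5.15 CPM, whose libraries overlapped those of DMSO D6 at 8.78 ± 2.5 CPM. Next came DMSO D12 at 5.72 ± 1.48 CPM and Torin D6 at 5.17 ± 1.70 CPM, which overlapped each other. For Thra the DMSO groups, at 21.2 ± 0.825 and 20.7 ± 0.524 CPM, overlapped, as did the Torin groups below them at 14.8 ± 2.03 CPM in D12 and 13.1 ± 6.71 CPM in D6. For Duox1 the highest means, 3.08 ± 0.441 CPM in DMSO D12 and 3.06 ± 1.19 CPM in Torin D6, overlapped, and the lowest was Torin D12 at 1.40 ± 0.883 CPM. The Slc16a10 means ran from 0.425 ± 0.0639 CPM in DMSO D12 to 0.920 ± 0.453 CPM in Torin D6.

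Besides the counts, the authors deposited normalized values that divide each count by a factor of its own gene and library. For Slc5a5, Dio2 and Duox1 these factors, relative to the library median, varied across libraries by at most 1.01-fold, so their normalized values follow the counts. For Thra they varied by 1.12-fold in the estradiol and 1.16-fold in the Torin experiment. For Thrb they varied by 4.45-fold in the estradiol experiment, and its deposited normalized values in ethanol were 16.7, 76.4 and 11.4. The second ethanol library thus stands out for Thrb in the normalized table, while its CPM of 1.47 lay near the others at 1.04 and 0.972. For Slc16a10 they varied by 3.13-fold and 2.22-fold. Its deposited normalized values were 32.9, 24.0 and 47.3 in ethanol and 22.3, 12.6 and 11.6 in estradiol, which do not overlap, unlike its CPM. In GENCODE M21, Slc5a5, Dio2 and Duox1 have 1 transcript each, Thra 9, Thrb 7 and Slc16a10 4. With these factors as offsets, the Thrb value for estradiol was -0.67 in place of -0.23, and that of Slc16a10 was -1.19 in place of -0.51.

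**Figure D4:**
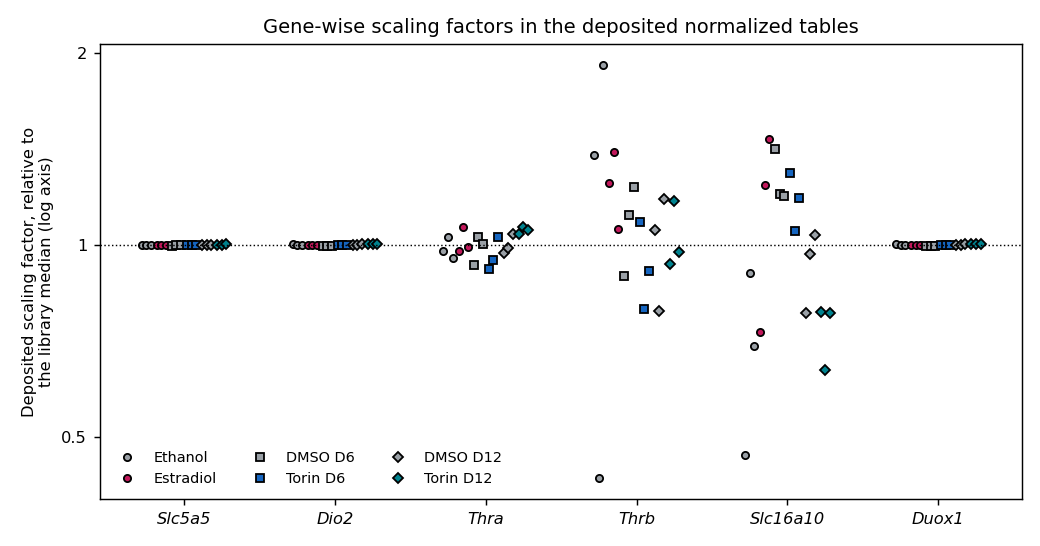
Factor by which the deposited normalized tables divide each count of 6 genes, relative to the median factor of the same library (log axis), with a point per library coloured by group. Slc5a5, Dio2 and Duox1 stay at 1, while Thrb in the estradiol experiment runs from 0.430 to 1.92 and Slc16a10 from 0.468 to 1.46.

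The other genes of the pathway were taken from 8 lists with 71 genes, of which 66 had a count. Several genes of these lists were close to absent. This did not hold for all that bind iodide into hormone, since Duoxa1, the maturation factor of dual oxidase 1, passed the count filter in both experiments. Tg (thyroglobulin) had 4 counts in ethanol and at most 2 in any other group. Slc26a4, which encodes the apical iodide exporter pendrin, had at most 4 counts in a group, and Iyd, which recycles iodide, also at most 4. The other deiodinase genes Dio1 and Dio3 had at most 1 and 2 counts in a group. Tshr, which encodes the thyrotropin receptor, had 4 to 9 counts per group. Of Tg, Slc26a4, Iyd, Dio1, Dio3 and Tshr none was tested. The summed level of 6 thyroid follicular markers was between 0.376 and 2.05 CPM in every library, and with estradiol (0.376 to 0.675 CPM) it was below ethanol (1.31 to 1.69 CPM). In the estradiol experiment most of this sum was the transcription factor gene Foxe1, the only marker of the 6 tested there (-1.35, SE 0.34). The lower sum thus does not describe the 6 markers as a set.

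Of the 10 genes of iodide transport, which hold channels and the sodium pump that drives the symporter, 8 were tested. With estradiol 2 rose and 3 fell (median log2 fold change 0.0096, all genes -0.0060), in D6 6 rose and 1 fell (median 0.84, all genes 0.048), and in D12 3 rose and 1 fell (median 0.14, all genes 0.012). Slc5a8, a sodium-coupled monocarboxylate transporter of the symporter's family, rose by a log2 of 0.63 (SE 0.042) with estradiol, 1.61 (SE 0.084) in D6 and 0.56 (SE 0.083) in D12. Cftr, a chloride channel, rose from 2.45, 1.88 and 2.35 CPM to 19.4, 19.6 and 19.1 CPM in D6, a log2 fold change of 3.12 (SE 0.26), and by 0.78 (SE 0.19) with estradiol and 1.97 (SE 0.26) in D12. Kcnq1, a potassium channel that supports iodide uptake in the thyroid, fell in all 3 comparisons, with log2 fold changes of -0.91 (SE 0.16), -1.45 (SE 0.18) and -2.22 (SE 0.18).

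Among the sodium pump genes, Atp1b1, a beta subunit, fell with estradiol (-0.23, SE 0.043), rose in D6 (1.06, SE 0.15) and was at -0.15 (SE 0.15) in D12.

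Of the 8 genes of iodide oxidation and organification 2 were tested. Duoxa1, the maturation factor that dual oxidase 1 needs and the coding neighbour of Duox1, was at 16.1, 18.8 and 13.6 CPM with DMSO and 10.5, 14.0 and 7.97 CPM with Torin in D6. In D12 it was at 23.9, 19.3 and 29.1 CPM with DMSO and 8.86, 8.87 and 8.29 CPM with Torin. It fell in both arms, by log2 values of -0.58 (SE 0.21) and -1.48 (SE 0.21), and was at -0.32 (SE 0.16) with estradiol, past no threshold. Its D6 call was lost in 8 of 16 alternatives, one of them without the third Torin library, where the value was -0.41. Lpo, the lactoperoxidase of milk, had log2 fold changes of -0.088 (SE 0.33), 0.37 (SE 0.58) and -0.059 (SE 0.56) and passed no threshold. Duoxa2, the partner of Duox2, had 6 counts in ethanol and 1 in estradiol, 7 in DMSO D6 and none in Torin D6, and 1 in DMSO D12 and none in Torin D12.

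Among the other NADPH oxidase genes, 3 were tested with estradiol and none passed the threshold, and 4 were tested with Torin, of which 2 rose and 1 fell in D6 and none passed in D12. Nox4 fell in D6 (-0.44, SE 0.10) and Cyba, the membrane subunit of several oxidases, rose (0.57, SE 0.095), and their D12 values were 0.29 (SE 0.10) and 0.038 (SE 0.095). Noxo1 also rose in D6 (0.47, SE 0.17), a call that was lost without the third Torin library (0.44).

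Deiodinases are selenoproteins, and 7 genes that make or turn them over were tested with estradiol (2 rose, none fell) and 8 with Torin (2 rose and 1 fell in D6, 2 rose and none fell in D12). Secisbp2, which binds the element in the RNA that directs selenocysteine insertion, rose by a log2 of 0.34 (SE 0.094) with estradiol, 0.71 (SE 0.14) in D6 and 0.46 (SE 0.14) in D12. The D12 call was lost in 9 of 16 and the estradiol call in 5 of 14 alternatives. Sephs2, which makes the selenium donor, rose with estradiol (0.19, SE 0.067), a call that was lost in 8 of 14 alternatives, and in D6 (0.25, SE 0.081), where the call was lost without the third Torin library (0.17). Usp20 and Usp33, which remove ubiquitin from the deiodinase, and Wsb1, which attaches it, passed no threshold in any comparison.

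Of the 10 genes of thyroid hormone transport and binding, 5 were tested with estradiol (2 rose, 1 fell) and 6 with Torin (2 rose and 2 fell in D6, none rose and 1 fell in D12). Slc7a5, an amino acid exchanger that also carries thyroid hormones, rose with estradiol (0.97, SE 0.061). Its D6 levels were 15.0, 18.5 and 15.9 CPM with DMSO and 16.4, 18.6 and 139 CPM with Torin. The D6 value of 1.81 (SE 0.64) passed the threshold through 1 library, and without it the log2 fold change was 0.077 and missed it. Slc7a8, a related exchanger, rose with estradiol (0.35, SE 0.10), a call that was lost in 6 of 14 alternatives. It fell in D6 (-1.52, SE 0.18) and was at -0.41 (SE 0.18) in D12. Slc3a2, the heavy chain of both exchangers, fell in D6 (-0.66, SE 0.077) and D12 (-0.35, SE 0.076).

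Of 12 receptor partners and coregulators 11 were tested. In each Torin arm 2 rose and 1 fell. With estradiol 1 fell, Tbl1xr1 of the corepressor complex (-0.39, SE 0.044), and none rose. Rxra, the retinoid X receptor that pairs with thyroid hormone receptors, rose in D6 (0.68, SE 0.12) and D12 (0.65, SE 0.12), and Tbl1x fell in both (-0.20, SE 0.066, and -0.32, SE 0.066). Rxrb rose in D6 (1.16, SE 0.32), by 0.49 without the third Torin library.

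Among 8 genes known to respond to thyroid hormone, 7 were tested with estradiol, of which 3 rose and 2 fell, and 8 with Torin, of which 3 rose and none fell in D6, and 1 rose and 1 fell in D12. They did not move one way. Klf9 fell with estradiol (-0.31, SE 0.064), as did Me1, malic enzyme (-0.39, SE 0.056), while Hr, a corepressor (0.20, SE 0.048), Gpd2, a mitochondrial dehydrogenase (0.18, SE 0.052), and Atp2a2, a calcium pump (0.22, SE 0.044), rose. In D6 Gpd2 rose by 1.35 (SE 0.088) and Atp2a2 by 1.39 (SE 0.28), the latter by 0.83 without the third Torin library. In D12 Hr rose by 0.90 (SE 0.15) and Me1 fell, at -1.94 (SE 0.30). Of the thyroid transcription factors, Foxe1 fell with estradiol (-1.35, SE 0.34) from 1.17, 1.43 and 1.17 CPM to 0.495, 0.646 and 0.329 CPM.

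Over all 8 lists, 9 of 44 tested genes rose and 8 fell with estradiol, 17 of 49 rose and 7 fell in D6, and 8 of 49 rose and 5 fell in D12. That is 38.6%, 49.0% and 26.5% past the threshold, against 34.0%, 39.1% and 25.4% of all genes, and no test compared the lists with other genes. In the difference of the arms 6 of 49 passed (12.2%, all genes 10.6%), and none passed between the DMSO groups.

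**Figure D5:**
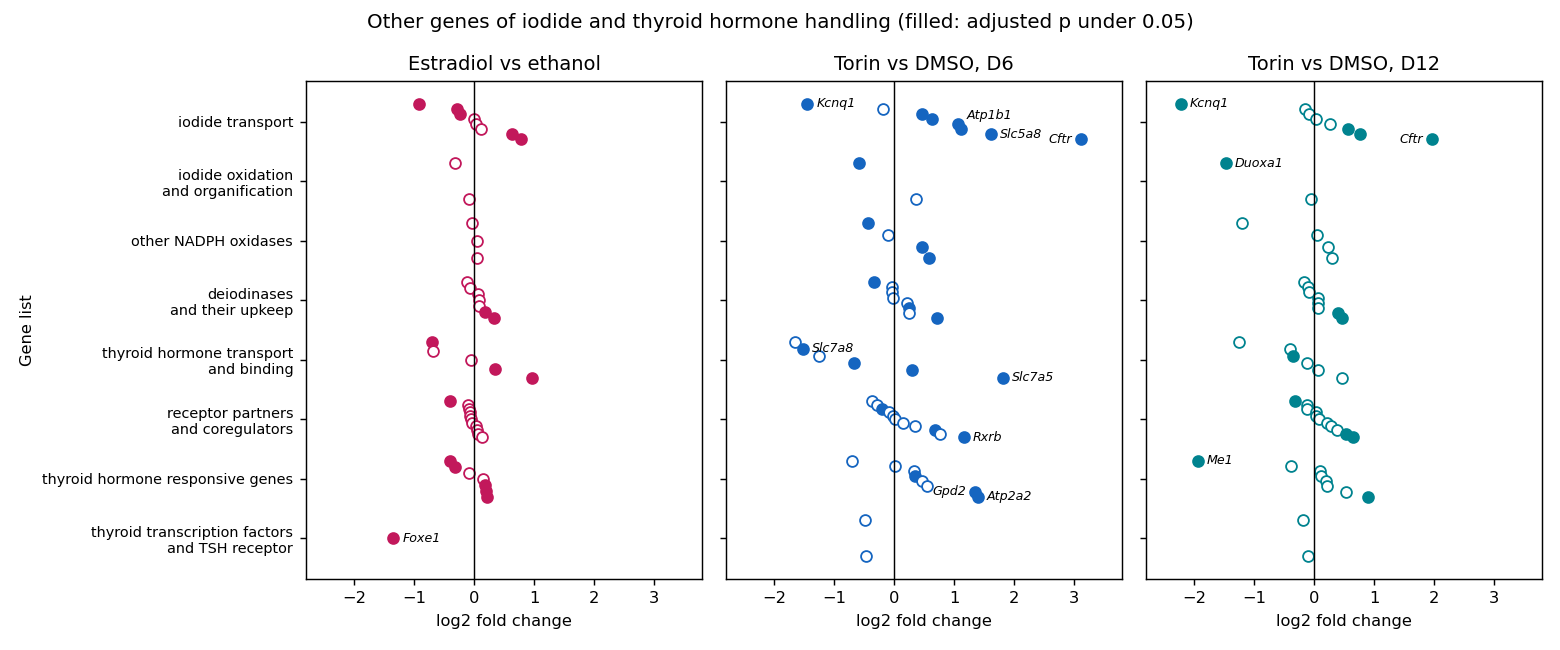
Log2 fold change of each tested gene of the 8 pathway lists (one row per list) for estradiol and for Torin in D6 and D12; filled points passed an adjusted p of 0.05 (edgeR), and names are given for most filled points of at least a 2-fold change. The iodide transport row holds the highest value, 3.12 for Cftr in D6, and the lowest in D12, -2.22 for Kcnq1.

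Markers of other cell types moved with the treatments as well. The summed level of 6 fibroblast markers was 839 to 1188 CPM in DMSO D6 and 260 to 292 CPM in Torin D6, and all 6 fell. In D12 it was 849 to 981 CPM and 675 to 972 CPM, and 1 of 6 fell (Pdgfra). With estradiol it was higher, 354 to 423 CPM against 251 to 279 CPM in ethanol, and 4 of 6 rose. The sum of 6 pan-luminal markers was 8120 to 9475 CPM in Torin D6 against 5300 to 6528 CPM in DMSO D6, and went the other way in D12, at 4802 to 5753 CPM against 6611 to 6917 CPM. Of these markers 3 rose and 1 fell (Krt19) in D6, and none rose and 3 fell in D12. The sum of 8 luminal progenitor and alveolar markers was 803 to 1083 CPM in Torin against 1568 to 1794 CPM in DMSO in D6, and overlapped in D12 at 1573 to 1762 CPM against 1545 to 1822 CPM. Of the 6 tested, 5 fell and 1 rose (Ltf) in D6, and 2 fell and 1 rose (Lalba) in D12. The 7 basal markers summed to 1518 to 1867 CPM in Torin against 2169 to 2503 CPM in DMSO in D6, and to 1669 to 2155 CPM against 2852 to 2943 CPM in D12. Gene by gene they went different ways. In D6 3 rose and 1 fell, Krt5 (-3.19, SE 0.11), and in D12 2 rose and 2 fell. The 8 hormone-sensing luminal markers summed to 460 to 584 CPM in Torin against 687 to 744 CPM in DMSO in D6, and to 420 to 454 CPM against 601 to 715 CPM in D12. Of these markers 5 fell and 2 rose in D6, and 5 fell and 1 rose in D12. In estradiol they summed to 500 to 545 CPM against 619 to 636 CPM in ethanol, but the genes went different ways: 5 fell and 2 rose, Pgr (2.45, SE 0.090), the progesterone receptor gene, and Areg (0.45, SE 0.055), which encodes amphiregulin. With estradiol the luminal progenitor and alveolar sum was 1623 to 1671 CPM against 1768 to 1864 CPM in ethanol. Of the 7 tested, 5 fell and 1 rose (Aldh1a3). The basal sums overlapped, at 8152 to 8620 CPM against 7926 to 8379 CPM, and 4 of 7 fell and 1 rose (Krt14). The pan-luminal sum was 4453 to 4528 CPM against 4533 to 4762 CPM, and 3 of 6 rose and 2 fell. The part of these shifts in the values of Slc5a5, Dio2, Thra and Thrb was not tested. Summed adipocyte markers stayed at or below 0.420 CPM and immune markers at or below 1.89 CPM in every library.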

How the data were processed

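Stranded libraries of polyadenylated RNA (NEBNext Ultra II) were read from both ends, per the labels' protocols. Groups came from the sample titles and treatment labels. Per the submitters' processing notes, kallisto, DESeq2, cutadapt, Trim Galore, MultiQC and FastQC were used, with the genome GRCm39; versions, settings and annotation are not given in the sources used here. In the estradiol table the authors gave expected counts, that is estimated counts per gene (32.2% not whole), rounded here. For the Torin experiment the authors deposited counts per gene symbol. The authors also deposited a normalized signal, used only in alternatives. Torin samples beyond the 12 used were not analysed here. Totals were 20637473 to 24312079 counts per library in the estradiol and 23239364 to 28910688 in the Torin experiment.

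Each experiment was fitted alone with edgeR 4.0.16 in R 4.3.3: filterByExpr (15358 and 18112 genes left), TMM scaling, group means and the quasi-likelihood test, called at an adjusted p (Benjamini-Hochberg) under 0.05. "Rose" and "fell" mean past it. The biological coefficient of variation was 5.27% with estradiol and 20.2% with Torin. Standard errors derive from the test statistic. For groups with 10 or fewer counts the ratio has a 95% exact counting interval. The 7 members and all lists were chosen with earlier results of these data known. Some genes of the lists are not reported here one by one. All 7 members and other genes of the lists may be named, and the 5 genes nearest to Slc5a5 and to Dio2 among those of at least 1 CPM (log2 CPM with a prior count of 2, each experiment centred). Unnamed and predicted genes (Gm and Rik symbols) were not among those compared. Alternatives were a stricter filter (1 CPM in 3 libraries) or none, DESeq2 1.42.0, scaling by RLE, adjusted p under 0.01, the replicate number as a block, limma 3.58.1 on log2 of the signal plus 1 (mean at least 10), the deposited factors as offsets, the compared groups alone, and each library left out. Leaving out the third Torin library of both arms was added after seeing the data. Scripts were tested on simulated data. Upstream windows are RefSeq's (GRCm38.p6) and gene models GENCODE M21 (GRCm38), another build than the authors'.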

Additional observations from a re-analysis of the deposited data

Results flagged for a closer look

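The following genes had a Torin effect in D12 that differed from that in D6 by the test of the difference itself (edgeR quasi-likelihood interaction contrast, adjusted over 18112 genes, 3 libraries in each of 4 groups). Among the members these were Slc5a5, with a log2 difference of -1.64, Dio2 with -1.16 and Thrb with 1.90. For Slc5a5 and Dio2, all 3 Torin libraries lay above all 3 DMSO libraries in both arms, and for Thrb below in D6 and above in D12. The groups likewise did not overlap for 48.5% of all genes in D6 and 43.7% in D12. The libraries and changes of these arms also chose the members, so the members' differences are no independent evidence. The call was lost in 12 of 21 alternatives for Slc5a5, 15 for Dio2 and 9 for Thrb, and with the replicate block 0 members passed. Without the third Torin D6 library the Slc5a5 difference missed the threshold.

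Among the other pathway genes the difference was -1.05 for the transporter gene Slc5a8, -1.21 for the sodium pump subunit gene Atp1b1, 0.73 for the oxidase gene Nox4, -0.54 for the oxidase subunit gene Cyba, 1.11 for the exchanger gene Slc7a8 and -1.16 for the dehydrogenase gene Gpd2. Those of Slc5a8, Atp1b1, Nox4 and Gpd2 passed in all 21 alternatives, that of Slc7a8 in 20 of 21 and that of Cyba in 10 of 21. Batch, treatment length and its start cannot be told apart in these differences.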

How the results depend on the processing

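The changes against vehicle chose the genes, so their ranges over the alternatives are given as a description: for Slc5a5 from 5.21 to 5.89 with estradiol, 4.45 to 4.91 in D6 and 2.95 to 3.18 in D12, and for Dio2 from 4.23 to 4.42, 4.50 to 4.72 and 3.17 to 3.77. The Thra value with estradiol ran from -0.56 to -0.50 and the Thrb value of D12 from 0.78 to 1.39. Values that changed sign were Slc16a10 in D6, -0.20 without the third Torin D6 library and -0.20 without the third of both arms, and the Thra difference of the arms, -0.071 without the first and -0.034 without the second Torin D6 library. With single libraries left out, the former ranged from -0.20 to 0.76 and the latter from -0.071 to 0.66, and without the third Torin library of both arms the latter was 0.75.

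Counts moved as follows. The cause was not tested beyond the smaller threshold or fewer libraries. The share of all genes called was not computed for these settings, so nothing is read from the counts of members. At an adjusted p under 0.01, rising pathway genes were 5 (estradiol) and 8 (D6), falling ones 4 (D6), and in the difference of the arms 1 rose and 0 members passed. With limma, 3 (estradiol), 10 (D6) and 5 (D12) rose, and 1 member passed in the difference. DESeq2 gave 11 falling genes in D6 and 9 in the difference. The deposited factors as offsets gave 5 rising genes in D12, and the D6 groups alone 11. Without the third Torin library of both arms, 13 genes rose in D12, 6 rose and 8 fell in the difference, and 4 (D6) and 5 (D12) members passed. With single libraries left out, rising genes in D6 ranged from 9 (without the first DMSO D6 library) to 16. They were 10 without the third DMSO D6 library, 15 without the third Torin D6 library, and 18 without the third Torin library of both arms. In the difference, members ranged from 0 to 4, falling genes from 3 to 7 (7 without the third Torin D6 library) and rising genes from 2 to 4 (4 without the third Torin D12 library). Members in the difference were 0 without DMSO D6 library 1 or 3, DMSO D12 library 2, or Torin D12 library 1 or 2, and 1 without DMSO D12 library 1 or Torin D12 library 3.

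Replicate numbers did not pair the libraries: deviations of same-numbered libraries correlated at -0.0267 to -0.00972 (estradiol) and -0.0939 to 0.0931 (Torin). With the replicate block, 0 members passed in the difference of the arms and Thrb in D12 was at 1.11. A fit of the compared groups alone equals that used for estradiol and has no counterpart for the difference. Depth limits Duox2 in all groups and Slc5a5 in the vehicle groups.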
